A study of Mus musculus with 8 samples.

Results

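The 8 Toll-like receptor genes Tlr1, Tlr2, Tlr4, Tlr6, Tlr7, Tlr8, Tlr9 and Tlr13 and the co-receptor gene Cd14 were followed in the GPR35-positive and GPR35-negative fractions of colonic cells sorted as macrophages. The 9 members were taken by symbol from a table of 14980 genes. All 9 were present, and all 9 passed the filter on low counts, as did 14184 genes in all. GPR35 is a G protein-coupled receptor, and cells gated as MHC class II and CD64 double positive were sorted by that receptor into a positive and a negative fraction, from the lamina propria of the colon in 4 males. Each mouse gave both fractions, so 8 RNA sequencing libraries form 4 pairs, numbered here as replicates 1 to 4. The labels used here give no strain, age, treatment, genotype or batch, so among stated properties the fractions differ in the sort alone.

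Toll-like receptors detect conserved microbial molecules and signal through adaptor proteins to NF-kB and interferon regulatory factors. TLR2 pairs with TLR1 or TLR6 at the cell surface to sense bacterial lipopeptides. TLR4 senses lipopolysaccharide, which CD14 hands over. TLR7, TLR8, TLR9 and TLR13 reside in endosomes, where TLR9 reads unmethylated CpG DNA, TLR7 and TLR8 read RNA and TLR13 reads bacterial ribosomal RNA. Gut macrophages lie beneath a dense microbial community and are known for muted responses to such ligands.

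Total counts ranged from 33769639 to 48599893 in the GPR35-positive and from 15996622 to 30066596 in the GPR35-negative libraries. The gene behind the sort, Gpr35, lay between 56.2 and 91.9 CPM in positive libraries and between 1.13 and 4.69 CPM in negative libraries. CPM are counts scaled to a common library size after trimmed-mean scaling (TMM). The gate was checked against 16 macrophage markers, among them Adgre1, Fcgr1 and Mertk. Their summed level was 41792 to 50178 CPM in positive libraries but 4416 to 21018 CPM in negative ones, and all 16 were higher in GPR35-positive cells. The 10 plasma cell markers summed to 1330 to 2771 CPM in positive and to 73672 to 143340 CPM in negative libraries, with 9 lower and 1 higher in GPR35-positive cells. Jchain made up most of the negative sums, at 7.37%, 14.13%, 11.54% and 10.62% of counts in replicates 1 to 4. All 10 plasma cell markers together held 8.02%, 15.08%, 12.44% and 11.65% there. With Jchain included, the plasma cell markers exceeded the macrophage markers in every GPR35-negative library. In replicates 1 to 4 they summed to 73672, 143340, 108290 and 102840 CPM, against 21018, 10042, 4416 and 6087 CPM for the macrophage markers. The sum without Jchain was not compared, so this order may rest on Jchain alone. These libraries are called the GPR35-negative fraction here and not macrophages. B cell markers summed to 54.7 to 75.3 against 429 to 1640 CPM (7 of 8 tested lower), T and innate lymphoid markers to 47.6 to 60.8 against 319 to 558 CPM (7 of 8 lower), and stromal and endothelial markers to 200 to 930 against 3022 to 6517 CPM (8 of 10 lower). Plasmacytoid dendritic cell markers summed to 160 to 236 against 629 to 1414 CPM (5 of 7 lower, 1 higher), epithelial markers to 65.4 to 127 against 169 to 474 CPM (2 of 8 lower), conventional dendritic cell markers to 80.4 to 187 against 39.2 to 231 CPM (1 of 7 higher) and granulocyte and mast cell markers to 112 to 166 against 101 to 221 CPM (2 of 7 lower, 1 higher). Pax5 was at 0 counts in at least 1 positive library, and so were Cxcr2, Ly6g and Cpa3. In at least 1 negative library Pax5, Cr2, Zbtb46, Clec9a, S100a9 and Siglecf were at 0. In bulk samples, fewer cells of a type and less RNA per cell cannot be told apart.

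Of the 9 members, 8 were higher in GPR35-positive cells and 0 were lower. Over all genes tested, 18.5% were called higher and 19.5% lower, 38.0% in all (edgeR quasi-likelihood test, Benjamini-Hochberg adjusted p below 0.05). With the replicate block, which compares the fractions within each animal, 8 of 9 members were again higher, against 19.4% of genes higher, 20.0% lower and 39.4% in all. The median log2 fold change of the members was 1.94, against -0.05 for all genes tested. The positive library stood above the negative library in all 4 animals for all 9 members, a pattern seen for 29.4% of genes. The positive and negative ranges did not overlap for 8 of the 9 members, against 21.5% of genes in which all positive libraries lay above all negative ones. The exception was Tlr4.

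Among the surface receptors, Tlr2 (chromosome 3, 83836272 to 83841824 in GRCm38.p6) encodes the shared partner of the lipopeptide receptors. It was at 676, 432, 471 and 497 CPM in the GPR35-positive libraries of replicates 1 to 4, and at 321, 108, 38.7 and 73.1 CPM in the GPR35-negative ones. Every positive library was above every negative one, and the negative library of replicate 1 stood highest in its group. Without the replicate block, as for the members below unless stated, the difference was 1.94 ± 0.58 on the log2 scale (SE, edgeR adjusted p = 0.0275). With the block the Tlr2 difference was 2.36 ± 0.42 (edgeR adjusted p = 6.80e-03). Over the 9 members, adjusted p with the block ran from 6.53e-03 to 0.0566.

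Tlr1 (chromosome 5, 64924680 to 64933600) encodes the partner of TLR2 for triacylated lipopeptides. Its positive libraries held 206, 144, 134 and 175 CPM, and its negative libraries 65.8, 26.7, 11.7 and 3.36 CPM. The negative libraries spread over a 19.6-fold range and the positive ones over a 1.54-fold range. Its fold change of 2.61 ± 0.74 on the log2 scale was the highest of the 9 (adjusted p = 0.0224). Tlr6 (chromosome 5, 64953092 to 64970942), which encodes the partner for diacylated lipopeptides, was lower in level. It lay at 50.6, 37.3, 34.5 and 44.0 CPM in positive and at 18.6, 13.0, 4.95 and 2.29 CPM in negative libraries, with the same order of negative libraries as Tlr1. The log2 fold change was 2.10 ± 0.56 (adjusted p = 0.0180).

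Tlr1 and Tlr6 are neighbours on the same strand, 19491 bases apart, and share long identical stretches. Over 2360 aligned coding bases they were 75.6% identical, and 873 of the 2385 coding bases of Tlr1 lay in identical runs of more than 30 bases. In no other pair of Toll-like receptor coding sequences did an identical run exceed 16 bases. The longest shared run, 229 bases, is shown because reads from it could be assigned to either gene. It lies at chr5:64925537-64925765 in Tlr1 and chr5:64953828-64954056 in Tlr6 (GRCm38, GENCODE M21, minus strand), within coding exon sequence of both.
Tlr1 and Tlr6 shared coding run: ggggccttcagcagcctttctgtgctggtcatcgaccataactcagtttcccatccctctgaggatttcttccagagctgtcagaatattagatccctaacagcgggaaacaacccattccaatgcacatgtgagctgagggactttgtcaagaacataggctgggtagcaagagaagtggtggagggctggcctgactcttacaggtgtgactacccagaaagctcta
How the counting treated such reads is not given in the sources used here, so the split between Tlr1 and Tlr6 is uncertain. With both genes' counts summed into 1 value, the log2 fold change was 2.49 ± 0.69 (edgeR adjusted p = 0.0202), the same direction and call as for either gene alone.

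Tlr4 (chromosome 4, 66827551 to 66846581), the lipopolysaccharide receptor, had the smallest fold change of the 9. It was measured at 177, 102, 121 and 145 CPM in positive libraries and at 113, 50.3, 39.5 and 28.1 CPM in negative libraries. The negative library of replicate 1 exceeded the positive library of replicate 2, so the groups overlapped, although each animal's positive library was the higher of its pair. The log2 fold change was 1.24 ± 0.41 (adjusted p = 0.0390). Cd14 (chromosome 18, 36725064 to 36726815) had the highest level of the 9. Its positive libraries held 1027, 960, 891 and 865 CPM and its negative libraries 626, 409, 93.3 and 190 CPM. The positive libraries lay within 1.19-fold of each other and the negative ones spread over 6.71-fold. The log2 fold change of Cd14 was 1.51 ± 0.50 (adjusted p = 0.0411).

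**Figure D1:**
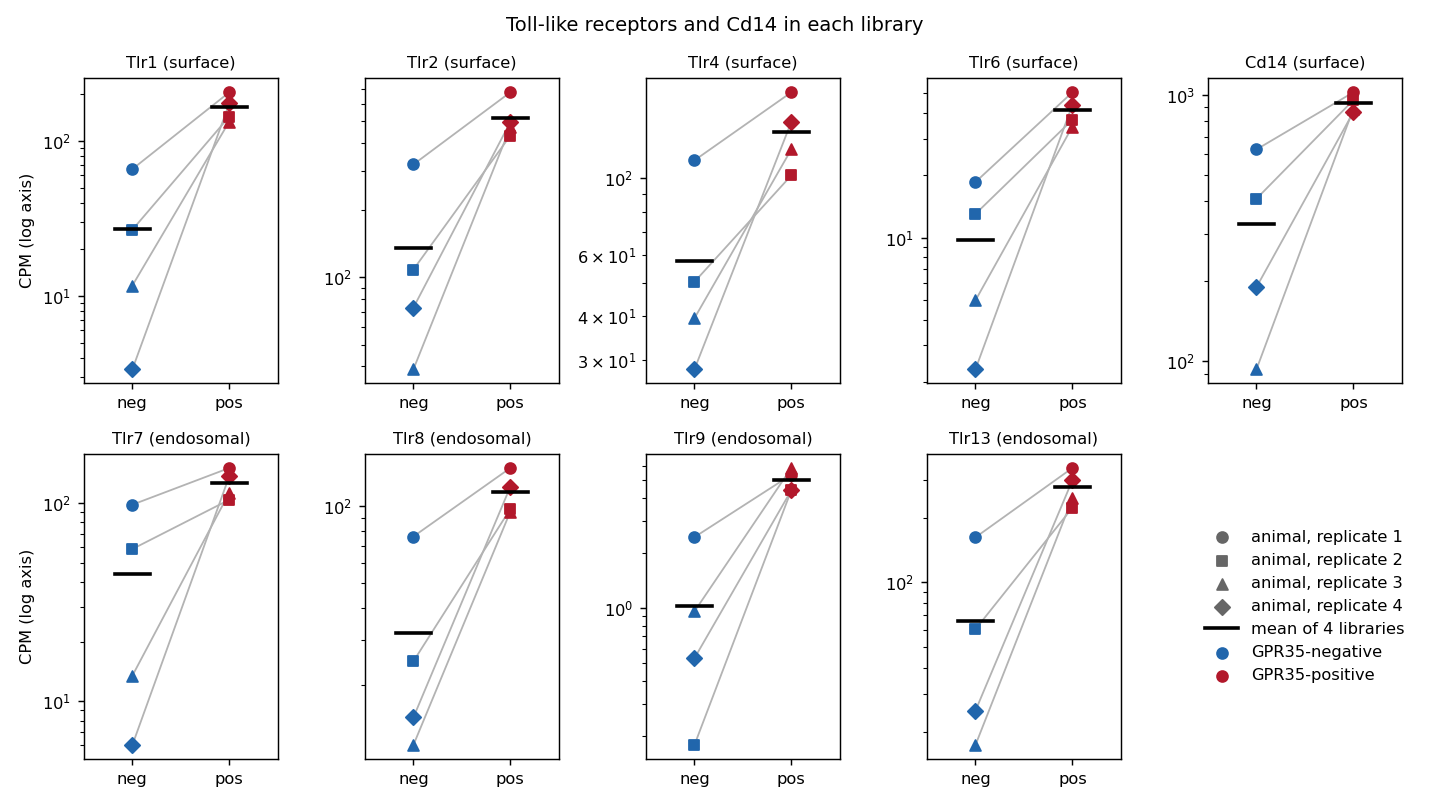
CPM of each member (log axis, a separate scale for each gene) in the 4 GPR35-negative and 4 GPR35-positive libraries, with lines joining the libraries of 1 animal, a marker shape for each replicate and a bar at each group mean. Every line slopes upward, the negative libraries are spread more widely than the positive ones, and only for Tlr4 do the groups overlap.

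Among the endosomal receptors, Tlr13 (chromosome X, 106143275 to 106160493), the sensor of bacterial ribosomal RNA, was the highest. It stood at 342, 223, 246 and 299 CPM in positive and at 162, 60.4, 17.4 and 25.1 CPM in negative libraries, without overlap. Its log2 fold change was 2.07 ± 0.64 (adjusted p = 0.0312). Tlr8 (chromosome X, 167241123 to 167264329) held 141, 97.4, 95.1 and 119 CPM against 76.0, 24.7, 11.6 and 14.9 CPM. The groups did not overlap, and the log2 fold change was 1.83 ± 0.55 (adjusted p = 0.0295).

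Tlr7 (chromosome X, 167303380 to 167330574), the receptor for single-stranded RNA, was the member that did not pass. Its positive libraries were at 150, 104, 113 and 137 CPM and its negative libraries at 98.2, 58.6, 13.5 and 6.01 CPM. These ranges nearly met, and the negative libraries covered a 16.3-fold range. The log2 fold change was 1.52 ± 0.72 (adjusted p = 0.127). With the block it was 2.19 (adjusted p = 0.0566), and with limma voom and quality weights it passed (2.51, adjusted p = 4.01e-03). Tlr9 (chromosome 9, 106222598 to 106226876), the CpG DNA receptor, was near the lower limit of the measurement. Its positive libraries held 5.37, 4.42, 5.84 and 4.41 CPM and its negative libraries 2.44, 0.178, 0.959 and 0.532 CPM. The negative values rest on 80, 3, 24 and 16 counts. The log2 fold change was 2.26 ± 0.71 (adjusted p = 0.0337), in libraries whose B cell markers, from a cell type that also carries TLR9, were higher in the negative fraction; the part of such cells in the Tlr9 value was not tested.

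The calls of the test without the replicate block depended on single animals. All 12 subsets that left out an animal or a library were fitted without that block. Whether the calls made with the block depend on single animals was not tested. Without replicate 2 or without replicate 3, 0 of 9 members passed in edgeR, with 8 and 6 at an unadjusted p below 0.05, and no other tool was run on those subsets. Without replicate 4, Tlr1 and Tlr6 passed, and without replicate 1 the count was 8. Leaving out a single GPR35-negative library gave 9, 2, 4 and 2 members called for replicates 1 to 4, and leaving out a single GPR35-positive library gave 1, 6, 4 and 2. All 9 fold changes stayed above 0 in these 12 subsets, and adjusted p ranged from 2.80e-04 to 0.283. Over all genes tested, 2425, 2071, 1572 and 1624 were called higher without replicates 1 to 4, against 2617 with all libraries. Across the 12 subsets this number of genes ran from 1572 to 2931.

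Promoter sequences from RefSeq (GRCm38.p6), reaching from 250 bases before to 50 after a start site, were matched by symbol for 6 of the 9 members, in 8 windows, and for the 4 Toll-like receptors outside the member list. They were searched on both strands for the core AGGAAGT bound by PU.1, the macrophage transcription factor encoded by Spi1, for an NF-kB-type motif (GGGA, any 4 bases, CC) and for an interferon-stimulated response motif (GAAA, any 2 bases, GAAA). The PU.1 core and the other motifs do not overlap in the windows shown. The PU.1 core was present in 4 of the 8 member windows, from Tlr1, Tlr6 (both windows) and Tlr9, and in 9.35% of 32851 promoters. The NF-kB-type motif was found in the Tlr2 window alone among the members, with 2 matches, and in 20.7% of all promoters. The response motif was found in 1 Tlr6 window, with 2 overlapping matches, and in 3.44% of all promoters. Outside the member list, Tlr3 had 3 NF-kB-type matches and Tlr5 had 1. Tlr11 and Tlr12 each held 1 PU.1 core, and Tlr11 also held 1 response motif. The windows of Tlr1, Tlr9 and Tlr12 are shown with the PU.1 core in capitals (antisense where it reads ACTTCCT), and that of Tlr2 with the NF-kB-type matches in capitals. They represent the member with the highest fold change, the endosomal member with the highest fold change, the receptor outside the list that differed most, and the member with NF-kB-type matches.
Tlr1, chr5:64933509-64933808, minus strand: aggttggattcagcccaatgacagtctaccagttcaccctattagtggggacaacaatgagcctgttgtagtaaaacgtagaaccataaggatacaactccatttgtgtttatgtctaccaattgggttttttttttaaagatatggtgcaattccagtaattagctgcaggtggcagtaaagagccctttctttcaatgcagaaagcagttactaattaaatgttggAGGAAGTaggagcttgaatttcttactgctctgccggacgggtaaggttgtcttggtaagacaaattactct
Tlr9, chr9:106222348-106222647, plus strand: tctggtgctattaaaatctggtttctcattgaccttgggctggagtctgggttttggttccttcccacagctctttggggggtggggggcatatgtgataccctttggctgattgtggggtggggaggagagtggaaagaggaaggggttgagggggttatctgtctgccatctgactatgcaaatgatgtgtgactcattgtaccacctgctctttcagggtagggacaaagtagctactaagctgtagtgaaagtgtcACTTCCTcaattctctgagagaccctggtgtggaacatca
Tlr12, chr4:128618570-128618869, minus strand: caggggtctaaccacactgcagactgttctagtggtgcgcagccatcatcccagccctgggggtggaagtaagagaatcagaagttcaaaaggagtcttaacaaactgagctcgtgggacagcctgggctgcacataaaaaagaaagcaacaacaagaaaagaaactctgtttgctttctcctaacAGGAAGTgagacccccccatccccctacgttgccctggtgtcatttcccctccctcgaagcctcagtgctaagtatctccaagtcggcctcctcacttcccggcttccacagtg
Tlr2, chr3:83841559-83841858, minus strand: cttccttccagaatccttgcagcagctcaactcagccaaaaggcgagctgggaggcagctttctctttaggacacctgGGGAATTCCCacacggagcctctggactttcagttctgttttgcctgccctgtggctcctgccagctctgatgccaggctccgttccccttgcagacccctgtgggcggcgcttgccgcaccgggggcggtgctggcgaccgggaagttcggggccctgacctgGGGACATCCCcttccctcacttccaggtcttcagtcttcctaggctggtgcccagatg
The Tlr1 core starts 22 bases before the start site and the Tlr12 core 64 bases before it. In Tlr9 the core begins at base 11 of the transcript. The Tlr2 matches begin 172 and 8 bases before the start site. Such a match is a string in the window and was not tested as a binding site.

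Surface and endosomal members had fold changes of similar size, compared here without a test. The medians were 1.94 for the 5 surface members and 1.95 for the 4 endosomal ones on the log2 scale, with 5 of 5 and 3 of 4 called higher. Both classes spanned similar values, from 1.24 for Tlr4 to 2.61 for Tlr1 and from 1.52 for Tlr7 to 2.26 for Tlr9. Within animals, the surface median was 1.07, 1.51, 3.25 and 2.76 in replicates 1 to 4, and the endosomal median 0.98, 1.93, 3.05 and 3.29. The surface median was the higher in replicates 1 and 3 (by 0.09 and 0.21) and the lower in replicates 2 and 4 (by 0.42 and 0.52), so the sign of the difference was not shared by the animals. Animals differed more from each other than the classes did, with the smallest differences of either class in replicate 1.

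Shares within the 9 transcripts do not depend on how libraries were scaled. Per kilobase of gene length, surface members made up 87.0 ± 1.41% of the summed reads in positive libraries (SD, n = 4) and 89.6 ± 2.62% in negative libraries. The ranges, 85.5% to 88.7% and 86.8% to 93.1%, overlapped. Cd14 carried most of this, with 59.1 ± 3.88% against 67.3 ± 6.46%, again with overlapping ranges. Among the Toll-like receptors alone the surface share was 68.3 ± 1.22% in positive and 68.2 ± 5.06% in negative libraries. Tlr1 took 5.60 ± 0.620% of the 9 in positive libraries against 2.75 ± 1.52%, with no overlap (lowest positive 4.95%, highest negative 4.21%). Tlr4 took 1.79 ± 0.275% against 3.00 ± 1.69%, and its ranges overlapped (1.43% to 2.01% and 1.88% to 5.51%). The Tlr4 share depends on the length used: with its GENCODE M21 length, and those of the other members, it ran from 2.71% to 3.81% in positive and from 3.55% to 10.1% in negative libraries, again with overlap.

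**Figure D2:**
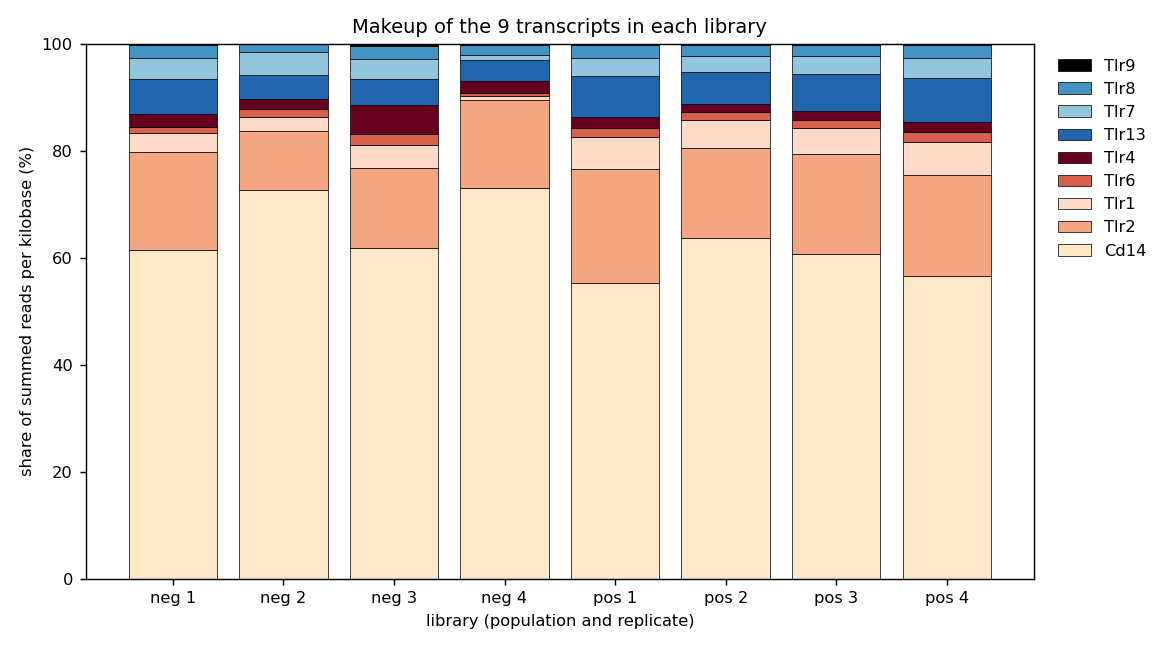
Share of each member (percent) in the summed reads per kilobase of the 9 transcripts, in each of the 8 libraries. Cd14 and Tlr2 fill most of every bar, and the endosomal receptors, in blue and black, fill between 6.94% and 14.5%.

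When each library was scaled to the geometric mean of the 16 macrophage markers, none of which is a member, 0 of 9 members were called higher and 1, Tlr4, lower in edgeR (1 of 9 at an unadjusted p below 0.05). With the replicate block added, 0 were called in either direction, and 0 had an unadjusted p below 0.05. This scaling moved the median of all genes to -2.68, with 0.458% of genes called higher, 86.7% lower and 87.1% in either direction. The members' median was -0.081, with -0.081 for surface and -0.084 for endosomal receptors. The TMM-scaled fold changes of the members, with a median of 1.94, were of the size of those of the macrophage markers themselves, which had a median of 2.08. The direction was thus tied to the scaling for Tlr2, Tlr4, Tlr6, Tlr7, Tlr8 and Cd14, which turned negative, and Tlr1, Tlr9 and Tlr13 stayed above 0 without passing.

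Tlr4 was the member called lower on the macrophage scale, at -1.02 ± 0.45 (SE, edgeR adjusted p = 0.0373), and -1.01 with the block (adjusted p = 0.0710). Per animal its difference on this scale was -0.55, -1.39, -1.55 and -0.55, negative in all 4. Cd14 was at -0.64 ± 0.45 (adjusted p = 0.177) and negative in 3 of 4 animals. Tlr1 lay at the other end, at 0.64 ± 0.51 (adjusted p = 0.235). Its differences were 0.45, 0.02, 0.35 and 2.78, above 0 in all 4 animals with the largest in replicate 4. In the same negative libraries stromal and endothelial markers, cells of types known to carry TLR4, summed to 4830, 3022, 6397 and 6517 CPM. Their part in the Tlr4 value was not tested.

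**Figure D3:**
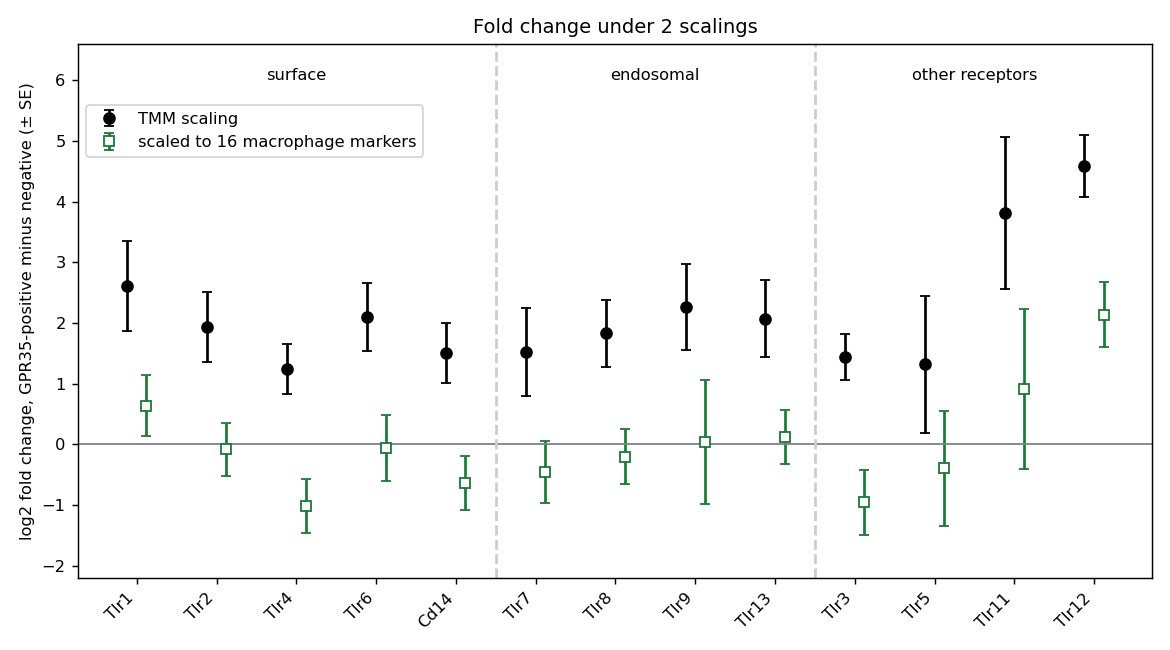
Log2 fold change (GPR35-positive minus GPR35-negative, with SE) of the 9 members and of Tlr3, Tlr5, Tlr11 and Tlr12, with TMM scaling (filled circles) and scaled to 16 macrophage markers (open squares). With TMM all 13 lie above 0. On the macrophage scale they lie on both sides of 0, from -1.02 for Tlr4 and -0.96 for Tlr3 to 0.91 for Tlr11 and 2.14 for Tlr12.

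Of the 9 members, 4 followed the macrophage markers in the order of the negative libraries. The mean of the macrophage markers was 9.18, 7.96, 7.01 and 7.39 log2 CPM in the negative libraries of replicates 1 to 4, and between 10.2 and 10.4 in all positive libraries. Cd14, Tlr2 and Tlr13 followed the same order of negative libraries, with replicate 1 highest and replicate 3 lowest, as did Tlr8. Tlr1, Tlr4, Tlr6 and Tlr7 had replicate 4 lowest instead, and Tlr9 replicate 2. These are 4 libraries, and no correlation was computed within them. The share of all genes with this order was not computed, so the order may not be particular to the members.

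**Figure D4:**
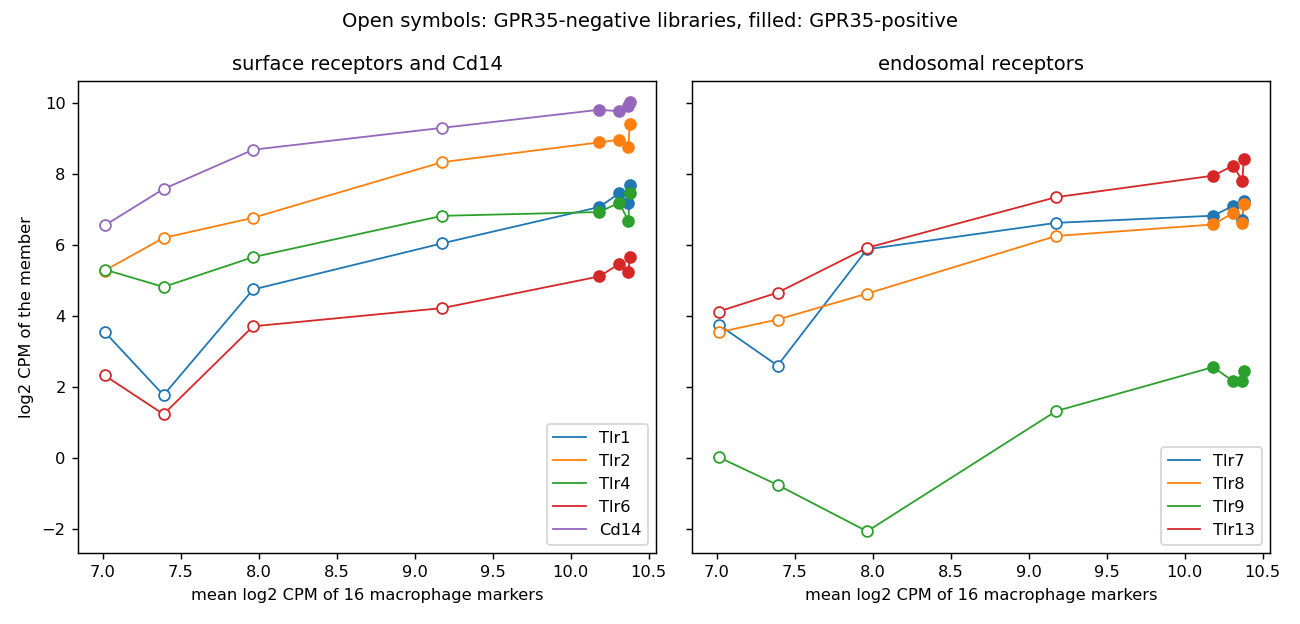
Log2 CPM of each member against the mean log2 CPM of 16 macrophage markers in the 8 libraries, with surface members on the left and endosomal members on the right. Open symbols (negative libraries) mostly climb toward the filled symbols (positive libraries), but those of Tlr9 fall before they rise. Tlr4 is the flattest of the surface members, and Tlr1, Tlr4, Tlr6 and Tlr7 dip in the negative library of replicate 4.

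Ratios between members were also compared, since they too are free of library scaling. Of 36 pairs of members, 10 had log2 ratios that did not overlap between the groups, against 42.0% of all pairs of genes tested. All 10 pairs held Tlr1 or Tlr4. Per kilobase, Tlr1 stood at 3.01, 3.65, 2.85 and 3.10 times Tlr4 in positive libraries, and at 1.51, 1.37, 0.764 and 0.308 times in negative ones. Tlr4 stood at 0.0947, 0.0854, 0.0930 and 0.106 times Tlr2 in positive libraries and at 0.127, 0.168, 0.369 and 0.139 times in negative ones. The size of these ratios depends on the deposited Tlr4 length, which is 1.94 times the GENCODE one. With GENCODE lengths Tlr1 stood at 1.57, 1.90, 1.49 and 1.62 times Tlr4 in positive and at 0.788, 0.717, 0.398 and 0.161 times in negative libraries, again without overlap, since a length changes every library alike. Tlr8 and Tlr7, by contrast, kept ratios of 0.740, 0.738, 0.665 and 0.687 in positive libraries, inside the range of 0.331 to 1.95 in negative libraries. GENCODE lengths put these ratios at 1.07, 1.06, 0.957 and 0.989, inside a negative range of 0.478 to 2.805. The negative range was the wider one in 36 of 36 pairs, with a median width of 2.07 against 0.31 on the log2 scale. Widths were not computed for all pairs of genes, so this may be general to these libraries and not particular to the members.

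By level per kilobase of deposited gene length (RPKM, scaled by TMM), the order in GPR35-positive cells was Cd14 at 563 ± 43.7 (SD, n = 4), Tlr2 at 182 ± 37.8, Tlr13 at 69.2 ± 13.3, Tlr1 at 53.9 ± 10.7, Tlr7 at 31.7 ± 5.36, Tlr8 at 22.4 ± 4.26, Tlr4 at 17.3 ± 4.10, Tlr6 at 15.995 ± 2.78 and Tlr9 at 1.44 ± 0.205. The ranges of Tlr13 and Tlr1, of Tlr7 and Tlr8, of Tlr8 and Tlr4 and of Tlr4 and Tlr6 overlapped, and those of the other neighbours did not. In GPR35-negative cells Cd14 led at 198 ± 143, followed by Tlr2 at 47.4 ± 44.5 and Tlr13 at 16.5 ± 16.6, and the range of every member except Tlr6 and Tlr9 overlapped that of the next. The middle of the order depends on the lengths used. The deposited length of Tlr4, 7891 bases, was 1.94 times its longest coding transcript in GENCODE M21. That of Tlr8 was 1.47 times and that of Tlr6 0.707 times. With GENCODE lengths Tlr4 (33.4 ± 7.94), Tlr8 (33.0 ± 6.27) and Tlr7 (32.3 ± 5.48) were level in positive cells. Tlr6 then stood at 11.3 ± 1.97, and its range (9.4 to 13.8) no longer overlapped that of Tlr4 (25.0 to 43.4).

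Of the 4 Toll-like receptors outside the member list, 3 were higher in GPR35-positive cells and 0 lower. Tlr12 (chromosome 4, 128615446 to 128618619), which in mice recognises profilin of apicomplexan parasites together with TLR11, stood apart. It was at 306, 226, 227 and 245 CPM in positive and at 13.5, 15.7, 10.2 and 2.43 CPM in negative libraries. These levels differed 24.0-fold between the means, with a log2 fold change of 4.59 ± 0.51 (edgeR adjusted p = 3.60e-04). It was called higher in each of the 12 subsets. On the macrophage scale Tlr12 stayed higher, at 2.14 ± 0.53 (adjusted p = 8.31e-04), and at 2.44 with the block. Its level per kilobase was 1.13, 1.28, 1.16 and 1.03 times that of Tlr13 in positive libraries, and 0.105, 0.330, 0.744 and 0.122 times in negative libraries.

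Tlr11 held 4.25, 14.7, 11.2 and 11.9 CPM in positive libraries, and 0.794, 0, 2.16 and 0 CPM in negative ones, where replicates 2 and 4 had 0 counts. Its fitted value of 3.81 ± 1.26 (adjusted p = 0.0407) rests on few counts in the negative libraries. The call ended with the block (adjusted p = 0.0530) and in 8 of 12 subsets. Tlr3, the double-stranded RNA receptor, was at 27.3, 28.4, 31.7 and 36.6 CPM against 19.3, 5.88, 6.67 and 13.7 CPM (1.44 ± 0.37, adjusted p = 0.0155), and at -0.96 on the macrophage scale (adjusted p = 0.0980). Its call ended without replicate 3 (adjusted p = 0.0706) and without replicate 4 (0.0695). Tlr5, the flagellin receptor, did not pass (1.32 ± 1.13, adjusted p = 0.381). Its positive libraries held 14.9, 8.83, 15.3 and 15.6 CPM and its negative libraries 15.9, 4.40, 1.52 and 0 CPM.

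The genes that serve these receptors were read from 8 role lists holding 66 symbols, of which 65 were in the table. In all, 37 of the 65 were higher, 4 lower and 24 not called. Across the whole table the shares were 18.5% and 19.5%. On the macrophage scale the counts were 2 and 44, against 0.458% and 86.7% of all genes. Calls by role given below are those with TMM scaling unless the macrophage scale is named. Many genes called higher with TMM were called lower on the macrophage scale. Slc15a4, Dnase2a, Irak4 and Nfkb1, named below, were among them. So were Cnpy4, Ap3b1, Tmed7, Ctsb, Ctsl, Traf6, Tbk1, Chuk, Ikbkb, Btk, Irf7, Tnip1 and Rnf216.

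Surface partners split in both directions, with 1 of 5 higher, 1 lower and 3 not called. Ly86, which encodes the MD-1 partner of the TLR4 relative CD180, was higher (2.25 ± 0.43, adjusted p = 4.10e-03), but stood at 0.034 on the macrophage scale (adjusted p = 0.941). Lbp, the lipopolysaccharide-binding protein gene, was lower (-1.55 ± 0.45, adjusted p = 0.0243), a call that ended in 8 of 12 subsets. Ly96 encodes MD-2, the subunit of the TLR4 complex that binds lipopolysaccharide. It was at 29.5 ± 5.07 CPM in positive and 21.5 ± 8.08 CPM in negative libraries and did not pass (0.45 ± 0.27, adjusted p = 0.217).

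Of 9 folding and transport genes, 8 rose in GPR35-positive cells and 1 fell, and with the replicate block 7 rose and 1 fell (Cnpy4 went from an edgeR adjusted p of 0.0389 to 0.0709). The lower one was Hsp90b1, the endoplasmic reticulum chaperone gp96, which folds most Toll-like receptors and is abundant in secretory cells (-1.93 ± 0.18, adjusted p = 1.39e-04). It was at 3852 ± 467 CPM in negative libraries, where the plasma cell markers were high, and at 1008 ± 181 CPM in positive ones. The part of plasma cells in this value was not tested. Its co-chaperone Cnpy3 was higher (1.64 ± 0.20, adjusted p = 5.96e-04), as was Slc15a4, an endolysosomal transporter needed for TLR7 and TLR9 signalling (1.13 ± 0.14, adjusted p = 6.43e-04). Unc93b1, which carries the endosomal receptors out of the endoplasmic reticulum and was named after its values were seen, was at 1705 ± 159 against 596 ± 226 CPM (1.52 ± 0.26, adjusted p = 2.51e-03).

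Of the 5 proteases known to cleave endosomal receptors, 4 were higher and 1 lower. Ctss, cathepsin S, was at 2.28 ± 0.27 (adjusted p = 4.58e-04) and Lgmn, asparagine endopeptidase, at 2.06 ± 0.34 (adjusted p = 2.10e-03). Ctsk, cathepsin K, was the lower one, at 1.84 ± 1.49 against 26.5 ± 4.24 CPM (-3.84 ± 0.60, adjusted p = 1.63e-03), in libraries where stromal markers were higher in the negative fraction, whose part was likewise not tested. Of 6 nucleic acid processing genes 3 were higher and 0 lower. They were Dnase1l3, a secreted DNase (4.42 ± 0.47, adjusted p = 2.91e-04), the lysosomal DNase Dnase2a (1.20 ± 0.22, adjusted p = 3.59e-03) and the endolysosomal exonuclease Pld4 (2.05 ± 0.45, adjusted p = 7.97e-03). The Pld4 call ended without replicate 2 (adjusted p = 0.0519) and without replicate 4 (0.0504). Dnase1l3 stayed higher on the macrophage scale (1.96 ± 0.56, adjusted p = 2.69e-03).

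Adaptors and kinases were higher for 11 of 20, lower for 0 and not called for 9. The list's median was 0.52, below the members' 1.94. Irak2 (1.59 ± 0.16, adjusted p = 1.86e-04), the common adaptor Myd88 (1.61 ± 0.19, adjusted p = 4.52e-04) and Irak4 (1.41 ± 0.20, adjusted p = 1.09e-03), all parts of the receptor-proximal complex, had the smallest p. Of 5 transcription factor genes 3 were higher, among them Irf5 (1.74 ± 0.25, adjusted p = 1.23e-03) and Nfkb1 (0.87 ± 0.16, adjusted p = 3.08e-03). Of 11 negative regulators 4 were higher and 1 lower. Tnip3, an inhibitor of NF-kB activation, was at 2.97 ± 0.26 (adjusted p = 1.24e-04) and at 0.46 on the macrophage scale (adjusted p = 0.437). Sigirr, which dampens interleukin-1 and Toll-like receptor signalling, was the lower one (5.22 ± 2.29 against 30.9 ± 9.44 CPM, -2.56 ± 0.43, adjusted p = 2.29e-03).

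**Figure D5:**
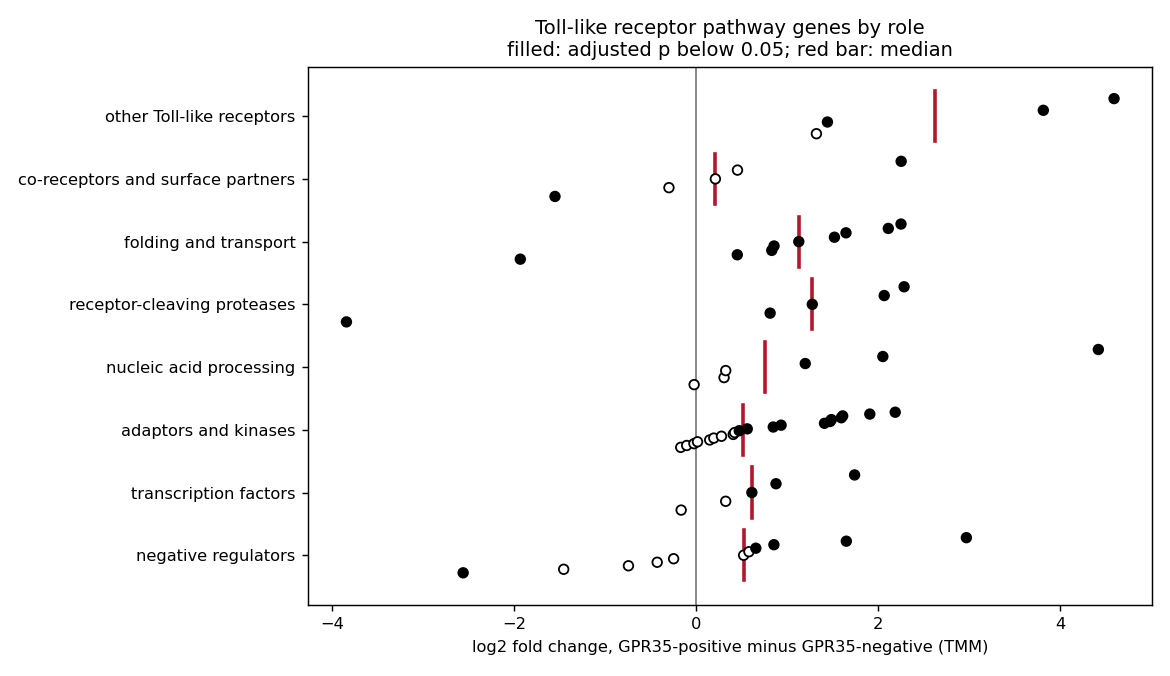
Log2 fold change (GPR35-positive minus GPR35-negative, TMM scaling) of each pathway gene, grouped by role, with filled points for adjusted p below 0.05 and a red bar at the median of each list. Most called genes lie above 0, and the 4 called below 0 are Lbp, Hsp90b1, Ctsk and Sigirr.

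The genes whose log2 CPM followed each member most closely over the 8 libraries were sought among non-member genes averaging 3 log2 CPM or more, by Pearson correlation. The points share the group difference, so these values are descriptions without a test. For Tlr13 they were Runx1, Pira6 and the macrophage growth factor receptor gene Csf1r (r = 0.998, 0.998 and 0.997), the last also one of the 16 macrophage markers. For Tlr2 they were Aoah, which encodes an enzyme that inactivates lipopolysaccharide (r = 0.998), Rab3il1 and Myo7a. Tlr8 was closest to Adap2, Pirb and Cx3cr1 (r = 0.996, 0.996 and 0.995), Tlr1 to Rassf2 (r = 0.995), Tlr6 to Gm6377 (r = 0.998), Tlr7 to Lpin1 (r = 0.995), Cd14 to Scamp2 (r = 0.995) and Tlr4 to Rtp4 (r = 0.996). Tlr9 had the weakest leading value, with Sash1 (r = 0.990). Among the members themselves, r was 0.996 for Tlr1 with Tlr6, which share sequence, 0.995 for Tlr8 with Tlr13 and 0.670 for Tlr7 with Tlr9.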

How the data were processed

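RNA from 8 sorted samples was amplified with SMART-Seq v4 and made into Nextera XT libraries, per the labels' protocols, a method without strand or molecular identifiers. The deposited table holds raw counts per gene and a gene length that is not otherwise described. The build mm10 and the tools R 3.4.2 and STAR 2.5.2a are named, per the submitters' processing notes. How reads were counted per gene is not given in the sources used here. Of all entries, 9 had no symbol (0.0179% of counts) and were left out.

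The main test was that of edgeR 4.0.16 in R 4.3.3 (filterByExpr with minimum count 10 and total 15, TMM, robust quasi-likelihood F-test, no block, adjustment over 14184 genes, threshold 0.05). SE was taken as the log2 fold change divided by √F. Log2 CPM used a prior count of 2. The test was checked on simulated counts. DESeq2 1.42.0, limma 3.58.1 voom, other scalings and filters, the replicate block and left-out libraries were alternatives. Coordinates came from RefSeq GRCm38.p6 and coding sequences from GENCODE M21.

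Labels give paired libraries 1 animal identifier, so the numbers pair them. Across genes, partners' deviations from the group means had correlations of 0.206, 0.206, 0.431 and 0.0637 in replicates 1 to 4, against a highest value with another animal of 0.104, 0.104, 0.237 and 0.237, so the partner was not the closest in replicate 4. Genes named were all members, up to 4 per role list by smallest p (2 or 3 printed), the other Toll-like receptors and the 3 closest genes by correlation. Members, lists and settings were chosen with earlier results of these data known. Separate animals, not technical repeats, make the replicates. Of the list symbols, Tasl and Epx had no match.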

Additional observations from a re-analysis of the deposited data

Results flagged for a closer look

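In 48 groups of 4 values (levels of the 9 members, the other Toll-like receptors and Gpr35, and shares within the members), 3 had a sample far from the others by Dixon's criterion, and chance picks about 1 in 20 groups. Tlr5 in the GPR35-positive library of replicate 2 stood at 3.15 log2 CPM, against 3.91 to 3.97 in the other positive libraries. Tlr4 took 5.51% of the summed reads per kilobase of the 9 members in the GPR35-negative library of replicate 3, against 1.88% to 2.33% in the other negative libraries (10.1% against 3.55% to 4.38% with GENCODE lengths). Tlr9 took 0.190% in the GPR35-positive library of replicate 3, against 0.138% to 0.141% in the other positive libraries.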

How the results depend on the processing

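With RLE size factors, no filter on low counts, DESeq2, summed Tlr1 and Tlr6 counts or a minimum of 5 CPM in 4 libraries, every named result that was tested kept its direction and side of the threshold; the last minimum removed Tlr9, Tlr11 and Lbp from the test. With the replicate block, 8 members were higher, the calls of Tlr11 and, among genes on the role lists, Cnpy4 were lost, Tollip passed (adjusted p = 0.0360), and no named result reversed. With limma voom, Tlr7 and Tlr5 passed and Tlr11 did not (adjusted p = 4.01e-03, 0.0397 and 0.0792). With library totals alone, 1695 genes were higher and 4191 lower, 5 members were higher, 29 pathway genes were higher and 8 lower, and Tlr4, Cd14, Tlr9 and Tlr11 missed the threshold (adjusted p = 0.0775, 0.0653, 0.0528 and 0.0547). Over the 12 subsets that left out an animal or a library, 1572 to 2931 genes were higher and 1680 to 3035 lower, 0 to 9 members were higher and 0 lower, and 27 to 37 pathway genes were higher and 3 to 5 lower. The surface median ranged from 1.63 to 2.64, the endosomal median from 1.65 to 2.88 and their difference from -0.24 to 0.080 (-0.0088 with all libraries). Counts without length, chosen after seeing the data, moved the surface share to 77.6% in positive and 81.4% in negative libraries, while GENCODE lengths gave 86.2% and 89.0%.

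Scaling to the macrophage markers gave 65 genes higher and 12294 lower, 0 members higher and 1 lower, medians of -0.081 for surface and -0.084 for endosomal members, and 2 pathway genes higher and 44 lower. With the replicate block added, 92 genes were higher and 11637 lower, 0 members were higher, the medians were -0.067 and -0.016, and 3 pathway genes were higher and 41 lower. By construction this scaling shifts all genes down. For genes whose TMM fold change is printed above, values that turned negative are given without and then with the block: Tlr2 -0.081 and -0.067, Tlr4 -1.02 and -1.01, Cd14 -0.64 and -0.58, Tlr7 -0.46 and -0.20, Tlr8 -0.20 and -0.20, Tlr3 -0.96 and -0.82. For pathway genes they were Ly96 -1.97 and -1.91, Cnpy3 -0.82 and -0.74, Slc15a4 -1.47 and -1.31, Unc93b1 -0.88 and -0.84, Ctss -0.12 and -0.075, Lgmn -0.25 and -0.23, Dnase2a -1.24 and -1.18, Pld4 -0.12 and -0.11. For signalling genes they were Irak2 -0.94 and -0.83, Myd88 -0.89 and -0.81, Irak4 -1.12 and -0.99, Irf5 -0.66 and -0.62, and Nfkb1 -1.67 and -1.54. Of these genes, Tlr4, Ly96, Slc15a4, Dnase2a, Irak4 and Nfkb1 were called lower on this scale without the block. With the block, Ly96, Slc15a4, Dnase2a and Nfkb1 were called lower. Tlr6 (-0.062) and Tlr5 (-0.40) turned negative without the block only. Calls lost on this scale with values still above 0 were Tlr1 (0.64 and 0.84), Tlr9 (0.035 and 0.34), Tlr13 (0.11 and 0.17), Ly86 (0.034 and 0.042) and Tnip3 (0.46 and 0.57) without and with the block, Tlr11 (0.91) without it and Tlr6 (0.068) with it. On simulated counts for this comparison (14184 genes), 22.4% of genes changed by 1 and 67.7% of those changed by 2 on the log2 scale were recovered. Only 98 and 99 genes were changed, with the same dispersion per gene in both groups and without pairs. In the data 38.0% of genes were called, so these rates may not hold there.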
